A study of Mus musculus with 22 samples.

Results

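The genes described here encode 7 subunits of the GABA-A receptor, the chloride channel through which the neurotransmitter GABA inhibits neurons: Gabra2, Gabra4, Gabra5 and Gabra6 (alpha subunits), Gabrb1 and Gabrb2 (beta subunits) and Gabrg3 (a gamma subunit). They were chosen by name and position, as 7 of the 21755 protein-coding genes annotated on chromosomes 1 to 19 and X, and lie in gene clusters on chromosomes 5, 7 and 11. For each gene, every 100 kb bin that overlaps it was read from the 5mC tables and every 1 Mb bin from the 5hmC tables, with the bins within 500 kb on either side as flanks. The samples were whole cortex without the hippocampus, olfactory bulb and cerebellum of female C57BL/6 mice at 8 weeks of age, with no treatment and no altered allele in any group. 5hmC came from TAB-seq, with 3 libraries per tissue, and 5mC from oxBS-seq, with 3 libraries from cortex and 2 from each of the other tissues. The replicates are described as coming from independent mice. Each library is a mixture of all the cells of its tissue, so a different share of a cell type and a different level within each cell cannot be told apart.

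A GABA-A receptor is a ring of subunits that usually combines alpha, beta and gamma members, and the alpha subunit does much to set where the receptor sits in the neuron and which drugs bind it. The alpha 6 subunit is a hallmark of the granule cells of the cerebellum, alpha 4 is found mostly in receptors outside synapses, alpha 5 is best known from the hippocampus, alpha 2 is enriched at the axon initial segment, beta 2 is a widespread beta subunit, and gamma 3 is a scarce gamma subunit. In brain DNA, 5-methylcytosine (5mC) at CpG sites can be oxidized by TET enzymes to 5-hydroxymethylcytosine (5hmC), a modification that neurons hold at high levels, much of it within the bodies of genes. Ordinary bisulfite sequencing reads both marks alike. TAB-seq reads only 5hmC and oxBS-seq only 5mC, and each level below is the fraction of cytosines with that mark in a bin, between 0 and 1.

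The starts of all 7 genes had an entry among RefSeq promoters (250 bases before to 50 after a start, GRCm38.p6), with 10 entries in all. The 4 genes whose 5mC relative to the flanks differed between cerebellum and cortex are shown, at the first listed start of each, 5′ to 3′ along the gene's own strand. CpG dinucleotides, the sites that both assays read, are in capitals. They lie at chr5:71095800-71096099 (Gabra2, minus strand), chr5:71657671-71657970 (Gabrb1, plus strand), chr11:42321023-42321322 (Gabra6, minus strand) and chr11:42420190-42420489 (Gabrb2, plus strand).
Gabra2: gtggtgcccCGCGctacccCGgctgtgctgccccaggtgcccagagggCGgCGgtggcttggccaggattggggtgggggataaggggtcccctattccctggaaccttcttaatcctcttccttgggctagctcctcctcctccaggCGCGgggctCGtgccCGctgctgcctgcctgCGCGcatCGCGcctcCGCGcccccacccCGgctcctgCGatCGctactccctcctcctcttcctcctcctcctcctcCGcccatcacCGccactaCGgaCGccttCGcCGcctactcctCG
Gabrb1: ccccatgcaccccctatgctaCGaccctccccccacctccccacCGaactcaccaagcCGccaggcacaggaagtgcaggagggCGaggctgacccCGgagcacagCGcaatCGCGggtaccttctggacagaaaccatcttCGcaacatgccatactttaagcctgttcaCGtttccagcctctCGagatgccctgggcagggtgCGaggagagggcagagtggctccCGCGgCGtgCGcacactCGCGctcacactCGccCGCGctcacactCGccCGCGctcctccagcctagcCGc
Gabra6: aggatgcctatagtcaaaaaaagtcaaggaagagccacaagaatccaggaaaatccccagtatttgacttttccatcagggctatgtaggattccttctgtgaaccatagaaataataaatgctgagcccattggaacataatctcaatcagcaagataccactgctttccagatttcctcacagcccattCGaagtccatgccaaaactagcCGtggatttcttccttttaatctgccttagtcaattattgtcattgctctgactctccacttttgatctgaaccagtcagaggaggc
Gabrb2: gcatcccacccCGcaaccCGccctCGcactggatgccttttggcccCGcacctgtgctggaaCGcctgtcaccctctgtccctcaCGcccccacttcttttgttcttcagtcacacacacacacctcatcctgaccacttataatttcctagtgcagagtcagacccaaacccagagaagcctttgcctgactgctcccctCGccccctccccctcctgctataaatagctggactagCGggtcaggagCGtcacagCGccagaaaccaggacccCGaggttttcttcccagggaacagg
The Gabra2 and Gabrb1 promoters held 25 CpG dinucleotides each. The Gabrb2 promoter held 11, and that of Gabra6 held 2. The median over all 32851 promoters in the table was 7, and 94.6% of them held at least 1. The bins are far wider than a promoter, so the levels below describe the surroundings of these sequences and not the sequences themselves. Gabra4 starts head to head with Gabrb1 on the opposite strand, and the same 100 kb bin holds the starts of both.

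The members differ widely in length, from 14.6 kb for Gabra6 to 671 kb for Gabrg3, and took up 1 to 7 bins of 100 kb each, 22 distinct bins in all, of which every one passed the filter on levels of 0 and 1. Gabra6 filled 14.6% of its only 100 kb bin and Gabrg3 95.8% of its 7 bins. The members' bins held a median of 572 CpG sites, below the median of 751 over the 25664 usable bins. In the 5hmC tables the members fell into only 6 distinct bins of 1 Mb, in which Gabra6 and Gabrb2 share 1 bin and therefore have identical 5hmC values.

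Over all usable bins the mean 5mC level per tissue was 0.677 in cortex and 0.707 in olfactory bulb, against 0.731 in cerebellum, and the mean 5hmC level was 0.163, 0.145 and 0.0949. Pearson's r across bins between libraries of the same tissue was at least 0.947 for 5mC and 0.994 for 5hmC. The dissections were checked against lists of genes typical of each tissue, for which low 5mC is the usual state where the gene is active. Of 10 genes of cerebellum, 6 had their lowest 5mC there, against 14.4% of all genes, and of 8 genes of olfactory bulb, 6 had theirs there, against 8.67%. Of 8 genes of cortex, 6 were lowest in cortex, as were 76.9% of all genes. In lists of glial genes, the median 5mC in cortex, olfactory bulb and cerebellum was 0.532, 0.561 and 0.634 for 6 genes of oligodendrocytes, 0.628, 0.684 and 0.728 for 5 of astrocytes, and 0.659, 0.687 and 0.717 for 4 of microglia. The part of the cell mixture in the differences below was not tested.

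The question put to the 5mC levels was which subunit genes differ between the tissues. The alpha genes on chromosome 5 were far more methylated in cerebellum than in the other tissues, while alpha 6 and beta 2, on chromosome 11, were most methylated in olfactory bulb. Differences were tested on log2(level/(1 − level)), here called the log2 ratio scale, over all genes at once with adjustment for the number of genes.

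Gabra2 had 5mC levels of 0.656, 0.665 and 0.640 in the cortex libraries, 0.675 and 0.654 in those of olfactory bulb, and 0.796 and 0.788 in those of cerebellum. The cortex and olfactory bulb libraries overlapped and both cerebellum libraries lay above all of them. Against cortex, Gabra2 rose in cerebellum by 1.01 on the log2 ratio scale (SE 0.113, adjusted p = 6.19e-11), and against olfactory bulb by 0.94 (SE 0.124, adjusted p = 9.99e-09).

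Gabra4 showed the same order, with 0.649, 0.643 and 0.623 in cortex, 0.683 and 0.669 in olfactory bulb, and 0.791 and 0.786 in cerebellum. No library of a tissue overlapped with those of another. Gabra4 rose in cerebellum by 1.07 against cortex (SE 0.113, adjusted p = 8.25e-12) and by 0.84 against olfactory bulb (adjusted p = 2.21e-07). Its difference of 0.24 between olfactory bulb and cortex did not pass the test (adjusted p = 0.1001).

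Gabra5, on chromosome 7, had the lowest mean level of the members in cortex, with 0.604, 0.607 and 0.564, and in olfactory bulb, with 0.603 and 0.602. Its cerebellum libraries, at 0.702 and 0.656, lay above both but also farther apart than those of any other member. The rise in cerebellum was 0.55 against cortex (SE 0.117, adjusted p = 7.38e-05) and 0.48 against olfactory bulb (adjusted p = 0.00289). Without replicate 1 of cerebellum, the difference from olfactory bulb was 0.33 and no longer passed (adjusted p = 0.175).

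Gabra6, the granule cell subunit, had the highest 5mC of the members in cortex, with 0.6995, 0.7001 and 0.693, and in olfactory bulb, with 0.771 and 0.774. In cerebellum it had 0.692 and 0.720, a range that spans the cortex libraries and stays below those of olfactory bulb. It rose in olfactory bulb by 0.56 against cortex (SE 0.113, adjusted p = 0.000279), and was lower in cerebellum than in olfactory bulb, with a difference of −0.50 (SE 0.124, adjusted p = 0.00161). Leaving out replicate 1 of cerebellum left a difference of −0.40 that did not pass (adjusted p = 0.0842). The difference between cerebellum and cortex was 0.06 (adjusted p = 0.661), and was −0.35 with an adjusted p of 0.0132 when each library was centred on its own median. It was 0.36, in the other direction (adjusted p = 3.29e-05), when 5mC was taken as the mean of the whole 1 Mb bin.

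**Figure D1:**
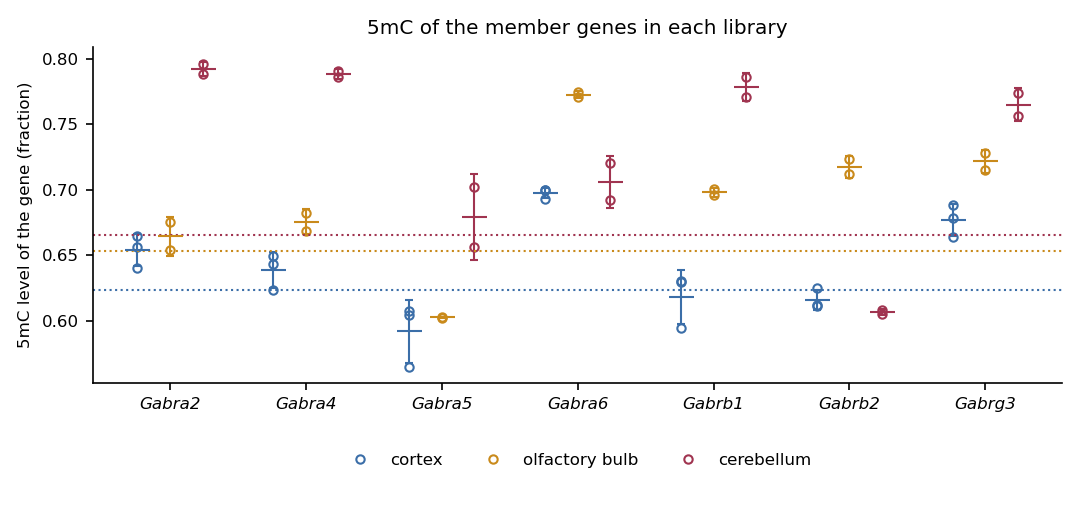
5mC level of each member gene (vertical axis, fraction) by tissue. Open points are single libraries, horizontal marks are means with bars of 1 SD, and dotted lines are the means of each tissue over all protein-coding genes. Cerebellum lies highest for Gabra2, Gabra4, Gabra5, Gabrb1 and Gabrg3, and olfactory bulb for Gabra6 and Gabrb2.

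Gabrb1, a beta subunit gene that runs for 491 kb beside Gabra4, had 0.630, 0.630 and 0.594 in cortex, 0.701 and 0.696 in olfactory bulb, and 0.786 and 0.771 in cerebellum. The tissues formed 3 separate steps. Gabrb1 rose in cerebellum by 1.12 against cortex (SE 0.114, adjusted p = 3.13e-12), a larger difference than in 99.8% of the genes tested, by 0.60 against olfactory bulb (adjusted p = 0.000154), and in olfactory bulb by 0.52 against cortex (adjusted p = 0.000805).

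Gabrb2, the beta subunit gene of the chromosome 11 cluster, had 0.625, 0.612 and 0.611 in cortex, 0.723 and 0.712 in olfactory bulb, and 0.605 and 0.608 in cerebellum. Its cerebellum libraries were the lowest of the 7, just under those of cortex, and the olfactory bulb libraries stood alone above both. It rose in olfactory bulb by 0.66 against cortex (SE 0.112, adjusted p = 1.86e-05), more than in 99.4% of genes. In cerebellum it was lower than in olfactory bulb, with a difference of −0.72 (SE 0.123, adjusted p = 5.61e-06), and 0.806% of genes had a lower value. The difference of −0.06 between cerebellum and cortex did not pass (adjusted p = 0.668), and was −0.46 with an adjusted p of 0.00121 after centring. As the mean of the 1 Mb bin, the same bin as for Gabra6, it was 0.36 (adjusted p = 3.29e-05).

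Gabrg3, the gamma 3 gene on chromosome 7, had 0.689, 0.678 and 0.664 in cortex, 0.728 and 0.715 in olfactory bulb, and 0.774 and 0.756 in cerebellum, in 3 steps without overlap. It rose in cerebellum by 0.64 against cortex (SE 0.113, adjusted p = 4.35e-06). Its smaller differences of 0.31 between olfactory bulb and cortex (adjusted p = 0.0372) and 0.33 between cerebellum and olfactory bulb (adjusted p = 0.0417) passed narrowly. The first was lost when any library of cortex or olfactory bulb was left out, with adjusted p between 0.0502 and 0.311. The second was lost without either library of olfactory bulb or cerebellum, or without replicate 1 of cortex, with adjusted p between 0.0692 and 0.317.

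In all, 5 of the 7 members were higher in cerebellum than in cortex, where 55.1% of 21718 genes were, and none was lower, against 4.26% of genes. By the same limma test at an unadjusted p under 0.05 the count of lower members was also 0. Between cerebellum and olfactory bulb, 5 were higher, against 18% of genes, and 2 were lower, against 7.69%. Between olfactory bulb and cortex, 4 were higher, against 26.4%, and 0 were lower, against 0.866% (0 also at an unadjusted p under 0.05). The median difference of the members was 0.64, 0.48 and 0.31 in these comparisons, beside medians of 0.29, 0.08 and 0.20 over all genes.

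The levels of whole libraries also differed between tissues. Centring each library on its own median changed the median difference over all genes to −0.12, −0.10 and −0.03 in the same comparisons and moved the higher share of all calls from 92.8% to 23.2%, from 70.04% to 27.6% and from 96.8% to 38.1%. In cerebellum against cortex after centring, Gabra2, Gabra4, Gabrb1 and Gabrg3 stayed higher and Gabra6 and Gabrb2 became lower, while Gabra5 (0.16, adjusted p = 0.0998) did not pass. Of all genes, 10.6% were then higher and 35.2% lower. In olfactory bulb against cortex, Gabra6 (0.33, adjusted p = 0.0595) and Gabrg3 (0.09, adjusted p = 0.445) lost their calls, as did Gabrg3 in cerebellum against olfactory bulb (0.14, adjusted p = 0.158). The differences between olfactory bulb and cortex of Gabra2 and Gabra5, neither of which passed, turned to −0.15 and −0.16.

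The members lay closest together in cortex. Their mean 5mC levels spanned 0.106 in cortex and 0.170 in olfactory bulb, against 0.186 in cerebellum. In cortex the order ran from Gabra6 (0.698 ± 0.0040, SD, n = 3) through Gabrg3, Gabra2, Gabra4, Gabrb1 and Gabrb2 to Gabra5 (0.592 ± 0.0240), and from Gabrg3 to Gabrb2 each gene overlapped with the next. In olfactory bulb Gabra6 led at 0.772 ± 0.0026 (n = 2) and Gabra5 was last at 0.602 ± 0.0003, with overlap only between Gabrg3 and Gabrb2 and between Gabra4 and Gabra2. In cerebellum the first 4 places went to Gabra2 (0.792 ± 0.0052, n = 2), Gabra4, Gabrb1 and Gabrg3 (0.765 ± 0.0125), each overlapping with its neighbour. Gabra6 (0.706 ± 0.0200) and Gabra5 (0.679 ± 0.0326) overlapped below them, and Gabrb2 (0.606 ± 0.0023) was apart and last.

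The 100 kb bins showed where along each gene the tissues differed. On chromosome 5, the bin chr5:71000001-71100000, which holds the start of Gabra2, was a dip in cortex (0.592 ± 0.0110, n = 3) and olfactory bulb (0.591 ± 0.0127, n = 2). In cerebellum the same bin had 0.782 and 0.777, level with the bins beside it. Its rise in cerebellum was 1.29 against either tissue. A second dip, over the shared start of Gabra4 and Gabrb1 at chr5:71600001-71700000 and the next bin inside Gabrb1, reached 0.551 ± 0.0363 in cortex at chr5:71700001-71800000. In cerebellum that bin had 0.747 ± 0.0155. All 6 bins of Gabrb1 rose in cerebellum against both other tissues, and 4 of them rose in olfactory bulb against cortex, by 0.48 to 0.78. Over all bins, 71.9% were higher in cerebellum than in cortex, 35.3% than in olfactory bulb, and 37.6% in olfactory bulb than in cortex. All 10 flanking bins of Gabrb1 were higher in cerebellum than in cortex as well.

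On chromosome 7, the level fell toward the start of Gabrg3, whose lowest bin in every tissue was chr7:57300001-57400000, with 0.606 ± 0.0040 in cortex and 0.633 ± 0.0183 in olfactory bulb, against 0.737 ± 0.0097 in cerebellum. The lowest bin of Gabra5, chr7:57500001-57600000, held 0.537 ± 0.0307, 0.552 ± 0.0071 and 0.614 ± 0.0586. All 7 bins of Gabrg3 and both bins of Gabra5 rose in cerebellum against cortex.

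Chromosome 11 had another profile. In cerebellum the level dropped from 0.832 in chr11:42200001-42300000, next to the 3′ end of Gabra6, to 0.706 in the bin of Gabra6 and to 0.542 ± 0.0028 at chr11:42400001-42500000, which holds the start of Gabrb2. It then climbed back to 0.804 in the first bin beyond the gene. The bin at the start of Gabrb2 had 0.540 and 0.544 in cerebellum, 0.593, 0.598 and 0.586 in cortex, and 0.717 and 0.696 in olfactory bulb. Cerebellum was the lowest tissue there, with a difference of −0.29 from cortex (adjusted p = 0.0172) and −1.02 from olfactory bulb. This was the only bin of the members that passed the test as lower in cerebellum than in cortex, and the call was lost without replicate 1 or replicate 2 of cerebellum. The next bin of Gabrb2, chr11:42500001-42600000, had means of 0.575 in cerebellum and 0.593 in cortex, a difference of −0.10 that did not pass (adjusted p = 0.424). The last bin of Gabrb2, chr11:42600001-42700000, was higher in cerebellum than in cortex by 0.26 (adjusted p = 0.0392). Of the 10 flanking bins of Gabra6, 9 were higher in olfactory bulb than in cortex, where 37.6% of all bins were. The same count held for the 10 flanking bins of Gabrb2.

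**Figure D2:**
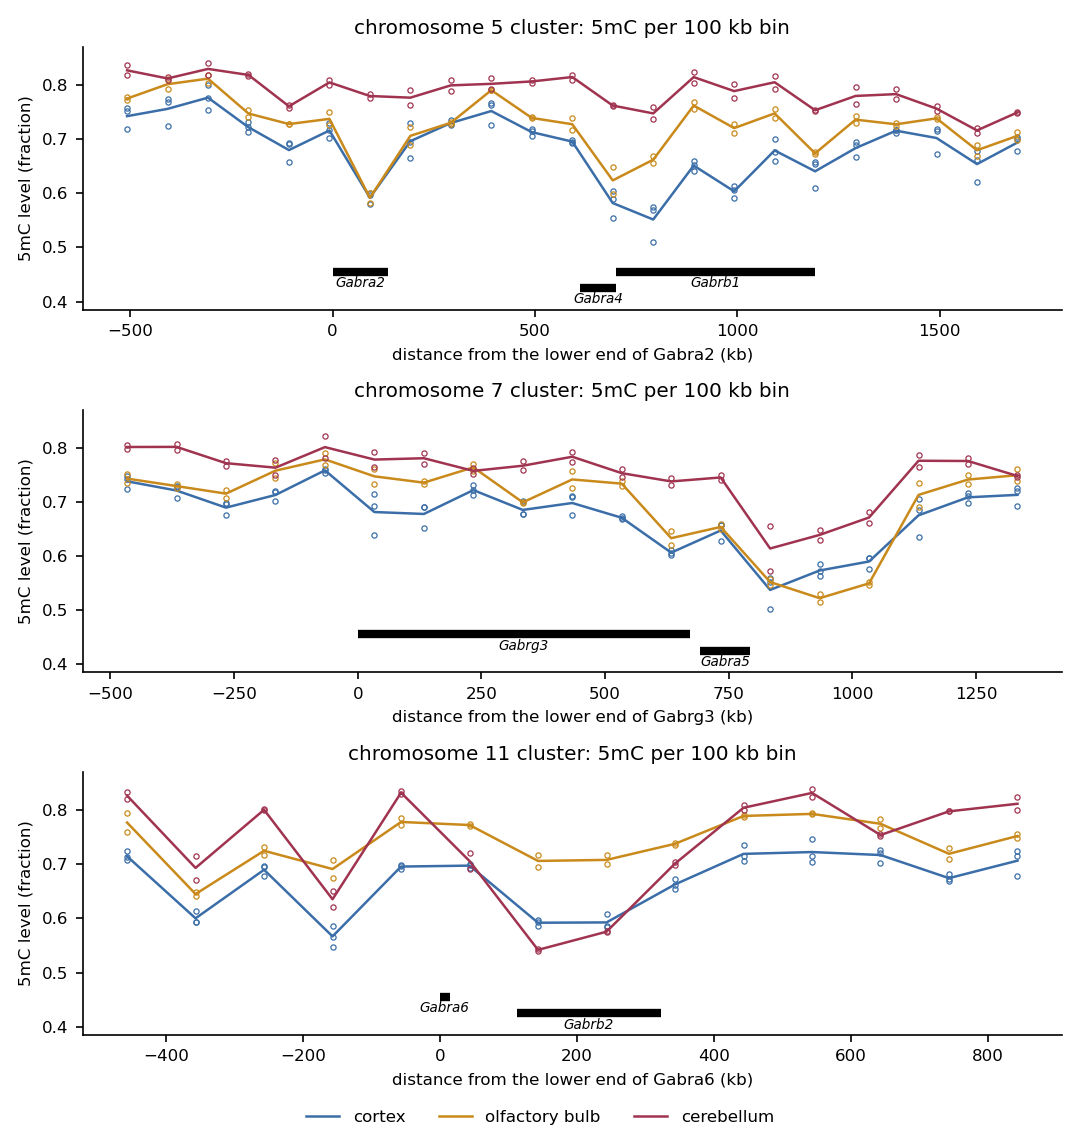
5mC level per 100 kb bin (vertical axis, fraction) along the 3 clusters and their 500 kb flanks, by distance in kb from the end of the first member with the lower coordinate. Lines are tissue means and points are single libraries. Black bars mark the member genes. Cerebellum runs above cortex throughout on chromosomes 5 and 7 but dips to 0.542 over Gabrb2, below cortex and olfactory bulb.

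Of the 22 distinct bins of the members, 19 were higher and 1 lower in cerebellum than in cortex, where 71.9% and 4.44% of all bins were. In cerebellum against olfactory bulb 15 were higher and 3 lower, against 35.3% and 7.69%. In olfactory bulb against cortex 13 were higher and 0 lower, against 37.6% and 2.18%. No bin of the members was lower at an unadjusted p under 0.05 in limma either. Without replicate 1 of olfactory bulb, 8 were higher. Centring moved the higher share of all bin calls from 94.2% to 51.4%, from 82.1% to 51.0% and from 94.5% to 47.1%. The members' bins then split into 14 higher and 3 lower, 12 and 4, and 8 and 1. Of all bins, 25.7% were then higher and 24.3% lower, 22.1% and 21.3%, and 8.81% and 9.9%.

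Since the surroundings of a gene can carry the same difference, each gene was also compared with its own 10 flanking bins. This difference, gene minus flanks on the scale of the fractions themselves, was −0.0638, −0.0687 and −0.0570 for Gabrb2 in cortex, −0.0241 and −0.0293 in olfactory bulb, and −0.165 and −0.156 in cerebellum. The body of Gabrb2 was below its flanks in every library, and farthest below them in cerebellum. The gene's dip was deeper in cerebellum, with a difference of −0.0973 from cortex (SE 0.0097, adjusted p = 0.000295) and −0.134 from olfactory bulb (SE 0.0107, adjusted p = 6.87e-05).

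Gabra6 lay above its flanks in cortex, by 0.0338, 0.0467 and 0.0450, and in olfactory bulb, by 0.0324 and 0.0424. In cerebellum it was level with them or below, at −0.0363 and −0.0003. The change was −0.0601 against cortex (adjusted p = 0.0095) and −0.0557 against olfactory bulb (adjusted p = 0.0192). Its flanks include Gabrb2. Without replicate 1 of cerebellum the changes were −0.0421 (adjusted p = 0.104) and −0.0377 (adjusted p = 0.155), and the second was also lost without replicate 1 (adjusted p = 0.0543) or replicate 2 (adjusted p = 0.0959) of olfactory bulb.

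Gabra2 and Gabrb1 went the other way, with dips in cortex that were nearly gone in cerebellum. Gabra2 minus its flanks was −0.0723 on average in cortex and −0.0912 in olfactory bulb, against −0.0125 in cerebellum, a rise in cerebellum of 0.0598 against cortex (adjusted p = 0.00474) and 0.0786 against olfactory bulb (adjusted p = 0.00202). The first was lost without replicate 2 of cerebellum (0.0565, adjusted p = 0.0567). Gabrb1 minus its flanks was −0.0855 in cortex and −0.0298 in olfactory bulb, and the gene was level with its flanks in cerebellum (0.0001 ± 0.0002, n = 2). Its rise against cortex was 0.0856 in cerebellum (adjusted p = 0.000584) and 0.0557 in olfactory bulb (adjusted p = 0.0142). The latter was lost without replicate 1 (adjusted p = 0.0824) or replicate 2 (adjusted p = 0.0767) of olfactory bulb.

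Gabra4 passed in 1 comparison, with a rise of 0.0376 in cerebellum against olfactory bulb (adjusted p = 0.0393) that was lost without either library of cerebellum or of olfactory bulb or without replicate 1 of cortex, with adjusted p between 0.0619 and 0.235. Against cortex its rise in cerebellum was 0.0232 (adjusted p = 0.127), and 0.0762 (adjusted p = 0.00113) when the flanking bins that hold other subunit genes were left out. Gabrg3, above its flanks in all 7 libraries, and Gabra5, below them in all 7, passed in none of the 3 comparisons. With the same flanking bins left out, Gabra5 rose in cerebellum against olfactory bulb by 0.0603 (adjusted p = 0.0323).

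**Figure D3:**
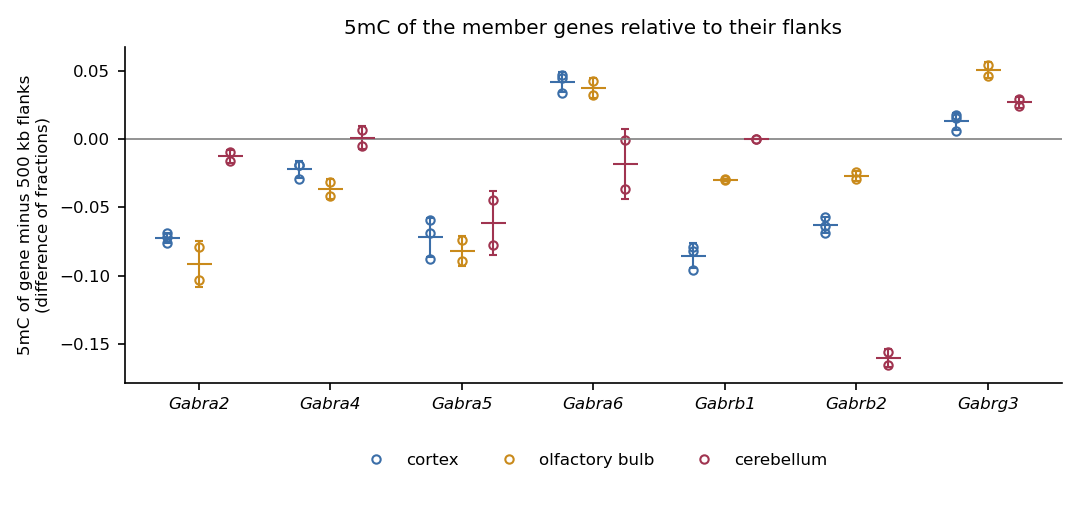
5mC of each member gene minus the mean of its flanking bins within 500 kb (vertical axis, difference of fractions). Open points are single libraries and horizontal marks are means with bars of 1 SD. In cerebellum Gabrb2 falls to between −0.165 and −0.156, while Gabra2, Gabra4 and Gabrb1 come close to 0.

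By gene minus flanks, 2 members were higher and 2 lower in cerebellum than in cortex, against 11.7% and 11.2% of genes. For cerebellum against olfactory bulb the counts were 2 and 2, against 9.95% and 10.9%, and for olfactory bulb against cortex 1 and 0, against 3.27% and 2.57%. The count of 0 was also 0 at an unadjusted p under 0.05. In olfactory bulb against cortex, Gabra6 (−0.0044, adjusted p = 0.869) and Gabrb2 (0.0365, adjusted p = 0.0603) did not pass by limma. With flanks of 1 Mb, Gabrb2 passed there (0.0459, adjusted p = 0.0311).

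In 5hmC the bin of the chromosome 11 members stood apart from the other bins. In the 1 Mb bin that holds Gabra6 and Gabrb2, chr11:42000001-43000000, the level was 0.171, 0.186 and 0.157 in cortex, 0.137, 0.148 and 0.142 in olfactory bulb, and 0.177, 0.175 and 0.180 in cerebellum. The cerebellum libraries lay within the range of cortex and above all those of olfactory bulb. The difference between cerebellum and cortex was 0.06 on the log2 ratio scale (SE 0.0732, adjusted p = 0.390), in a tissue whose 1 Mb bins had a median difference of −0.97 from cortex, and 99.3% of bins had a lower value. Against olfactory bulb the bin rose in cerebellum by 0.38 (adjusted p = 2.71e-07). Without replicate 2 of cortex, the difference from cortex was 0.14 and passed (adjusted p = 0.0263), and without replicate 3 of cortex it was −0.01 (adjusted p = 0.901). Gabra6 fills 1.46% of this bin and Gabrb2 20.9%.

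The bins beside it did not share this level. In cerebellum they had 0.0837 ± 0.0007 (chr11:41000001-42000000, n = 3) and 0.124 ± 0.0071 (chr11:43000001-44000000), and both were lower there than in cortex, with differences of −0.95 and −0.62. The bin of Gabra6 and Gabrb2 was below the second of these on average in cortex (0.179 ± 0.0132) and olfactory bulb (0.149 ± 0.0034), and above it in cerebellum. It stood above the first in all 9 libraries, by 0.0210 ± 0.0055 in cortex and 0.0033 ± 0.0022 in olfactory bulb, against 0.0938 ± 0.0024 in cerebellum.

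On chromosome 5 all 3 bins had less 5hmC in cerebellum than in cortex, as did 97.6% of all 2581 bins, with a median difference of −0.97. The bin shared by Gabra2, Gabra4 and Gabrb1, chr5:71000001-72000000, had 0.187, 0.194 and 0.177 in cortex, 0.163, 0.174 and 0.162 in olfactory bulb, and 0.0707, 0.0758 and 0.0722 in cerebellum. The cerebellum libraries were far below all others, with a difference of −1.54 from cortex and −1.34 from olfactory bulb. The bin with the tail of Gabra2 and all of Gabrg1, chr5:70000001-71000000, was poorest in 5hmC in every tissue, at 0.128 ± 0.0055, 0.103 ± 0.0036 and 0.0432 ± 0.0021 (n = 3 each), and differed by −1.70 between cerebellum and cortex. The bin with the far part of Gabrb1, chr5:72000001-73000000, had 0.196 ± 0.0119, 0.167 ± 0.0078 and 0.0961 ± 0.0040, a difference of −1.19. Between cerebellum and cortex, 7.36%, 14.1% and 34.1% of all bins had a lower difference than the bins from 70000001, 71000001 and 72000001.

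On chromosome 7 the cerebellum was again lowest, as in most bins of the genome, but olfactory bulb was not below cortex throughout. The bin of Gabra5 and the start of Gabrg3, chr7:57000001-58000000, had 0.181, 0.195 and 0.171 in cortex, 0.207, 0.212 and 0.203 in olfactory bulb, and 0.0960, 0.0892 and 0.0924 in cerebellum. All 3 olfactory bulb libraries lay above all those of cortex, a rise of 0.23 (SE 0.0732, adjusted p = 0.00314), and 98.3% of bins had a lower difference. The bin with the rest of Gabrg3, chr7:56000001-57000000, had 0.177 ± 0.0094 in cortex and 0.162 ± 0.0029 in olfactory bulb, against 0.0628 ± 0.0024 in cerebellum. Its difference of −0.16 between olfactory bulb and cortex passed narrowly (adjusted p = 0.0454) and was lost without any 1 of 7 libraries, with adjusted p between 0.0541 and 0.151. After centring it was 0.08 and passed in the opposite direction (adjusted p = 0.0331).

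**Figure D4:**
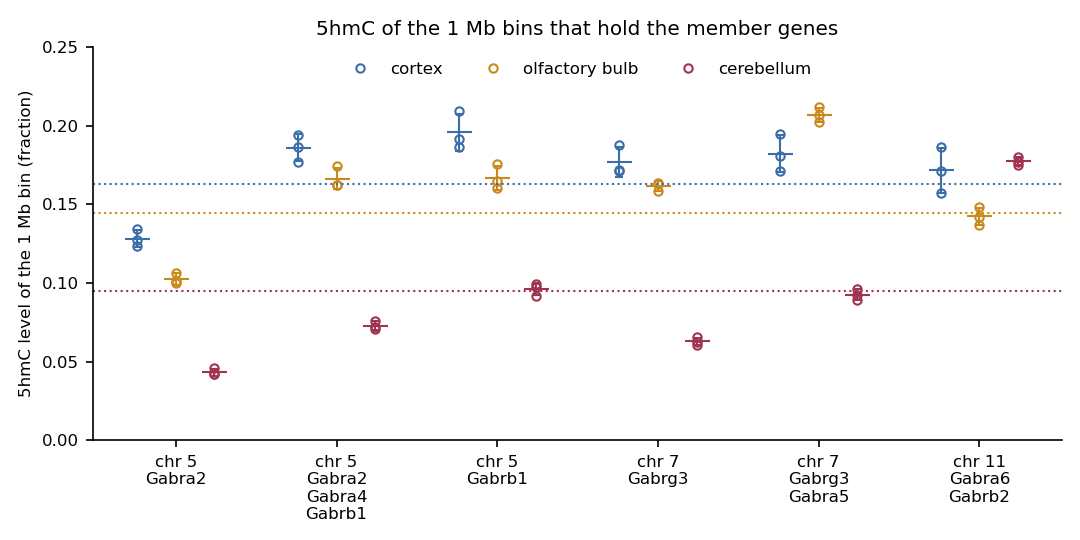
5hmC level of the 6 distinct 1 Mb bins that hold the member genes (vertical axis, fraction), with the members in each bin named below. Open points are single libraries, horizontal marks are means with bars of 1 SD, and dotted lines are tissue means over all usable bins. In cerebellum 5 bins lie between 0.0432 and 0.0961 on average and the chromosome 11 bin at 0.177.

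Averaged per gene, 5hmC in cerebellum was highest for Gabra6 and Gabrb2 (0.177 ± 0.0025, n = 3), above 97.5% of genes, followed at a distance by Gabra5 (0.0925 ± 0.0034), Gabrb1, Gabrg3 and Gabra4 to Gabra2 (0.0580 ± 0.0023). Only Gabrg3 and Gabra4 overlapped, beside the shared bin. In cortex the same 7 genes spanned no more than 0.157 to 0.191, and each overlapped with the next. In olfactory bulb Gabra5 (0.207 ± 0.0046) led, with no library below those of Gabrg3 (0.184 ± 0.0036), and Gabra2 was last.

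By the test over 21755 genes, 5 of 7 members had less 5hmC in cerebellum than in cortex, against 98.4% of genes, and 0 had more, against 0.124%. By limma at an unadjusted p under 0.05 none had more either. The members that were not lower were Gabra6 and Gabrb2. Against olfactory bulb, 5 were lower in cerebellum and 2 higher, beside 88% and 1.02% of genes. In olfactory bulb against cortex 5 were lower and 1, Gabra5, was higher, beside 77.9% and 1.07%. Counted as distinct bins, 5 of 6 were lower in cerebellum than in cortex and 0 higher (97.6% and 0.426% of 2581 bins, and 0 higher also at an unadjusted p under 0.05), 5 lower and 1 higher than in olfactory bulb (91.8% and 1.2%), and 5 lower and 1 higher in olfactory bulb than in cortex (67.7% and 3.25%). Without replicate 1 or replicate 3 of olfactory bulb, 3 bins were lower in that last comparison.

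Centring each library on its median over all bins turned the sign of the median 5hmC difference over all genes in both comparisons of cerebellum. In cerebellum against cortex the higher share of all calls per gene moved from 0.126% to 75.5%, against olfactory bulb from 1.14% to 79.2%, and in olfactory bulb against cortex from 1.35% to 43.4%. Per bin, these shares moved from 0.435% to 55.6%, from 1.29% to 56.6% and from 4.59% to 52.3%. The median difference over all genes went from −0.76 to 0.28, from −0.50 to 0.30 and from −0.27 to −0.03 on the log2 ratio scale. After centring, Gabra2, Gabra4, Gabrb1, Gabrg3 and Gabra5 were still lower in cerebellum than in cortex, with differences from −0.58 for Gabra2 to −0.08 for Gabra5, and Gabra6 and Gabrb2 were higher by 1.11. Of all genes, 22.4% were then lower and 68.9% higher in that comparison. In olfactory bulb against cortex, Gabra5 (0.47) and Gabrg3 (0.28) were then higher, Gabra6 and Gabrb2 lower (−0.08), and Gabra2, Gabra4 and Gabrb1 did not pass.

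In cerebellum against cortex, the members of chromosomes 5 and 7 had more 5mC and less 5hmC. In the 1 Mb bin shared by Gabra2, Gabra4 and Gabrb1, 5mC averaged from its 100 kb bins went from 0.657 in cortex to 0.789 in cerebellum and 5hmC from 0.186 to 0.0729. The sum of both marks was 0.843 ± 0.0167 in cortex and 0.862 ± 0.0115 in cerebellum (errors propagated from the SDs of the assays). The share of 5hmC in the sum was 22.1% in cortex and 19.1% in olfactory bulb, against 8.46% in cerebellum. In the bin of Gabra6 and Gabrb2 the sum was 0.837 ± 0.0167, 0.890 ± 0.0093 and 0.896 ± 0.0027, and the share of 5hmC was 20.5%, 15.99% and 19.8%. Over all 2581 shared bins that share was 19.4%, 17.0% and 11.5%, and the sum was 0.840, 0.852 and 0.826. On chromosome 5, the bin from 70000001 had sums of 0.864 ± 0.0135 in cortex and 0.857 ± 0.0089 in cerebellum. The bin from 72000001 had 0.861 ± 0.0205 and 0.846 ± 0.0126. On chromosome 7, the bin from 56000001 had 0.874 ± 0.0155 and 0.837 ± 0.0112. The bin from 57000001 had 0.821 ± 0.0185 and 0.818 ± 0.0150. The assays were run on separate libraries, so the sums have no test.

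**Figure D5:**
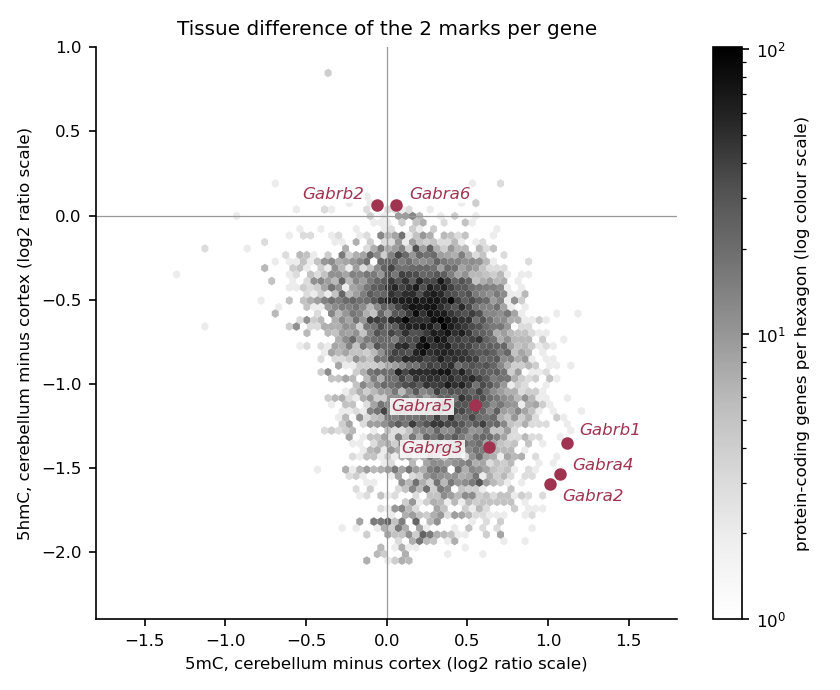
Difference between cerebellum and cortex in 5mC (horizontal axis) and in 5hmC (vertical axis) on the log2 ratio scale, for 21718 protein-coding genes in grey hexagons (darker for more genes, log colour scale) and the 7 members as red points. Gabra2, Gabra4 and Gabrb1 lie at the edge with a gain of 1.01 to 1.12 in 5mC, and Gabra6 and Gabrb2 at the edge with a 5hmC difference of 0.06.

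Whether the clusters themselves differed in their tissue pattern was asked with the mean of the chromosome 11 members minus the mean of the chromosome 5 members in each library. For 5mC it was 0.0169, 0.0099 and 0.0328 in cortex, 0.0609 and 0.0702 in olfactory bulb, and −0.143 and −0.118 in cerebellum. The sign turned only in cerebellum. The difference between cerebellum and cortex was −0.150 (two-sided exact permutation p = 0.10, the smallest that 3 against 2 libraries allow), and that between cerebellum and olfactory bulb −0.196 (exact p = 0.33, the smallest for 2 against 2). For 5hmC, the same quantity was −0.0065 ± 0.0058 in cortex and −0.0135 ± 0.0035 in olfactory bulb, against 0.106 ± 0.0041 in cerebellum (n = 3 each). Cerebellum differed by 0.112 from cortex and by 0.119 from olfactory bulb (exact p = 0.10 each, the smallest for 3 against 3). Against the chromosome 7 members, 5mC differed by −0.0882 and 5hmC by 0.102 between cerebellum and cortex, with the same smallest p. No p under 0.05 is possible in these tests.

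Gabrg1, next to Gabra2, rose in cerebellum against cortex by 0.68 in 5mC (adjusted p = 1.21e-06). The only gene of the pathway lists called lower between these tissues, where 4.26% of all genes were, was Gabrd, which encodes the delta subunit, with 0.506 ± 0.0152 in cortex (n = 3) and 0.423 ± 0.0175 in cerebellum (n = 2), a difference of −0.48 (adjusted p = 0.000276). Gabrd fills 13.1% of its only 100 kb bin, which also overlaps Prkcz. The adjacent bins, from 155200001 and from 155400001 on chromosome 4, differed by −0.73 and 0.28. Gabrd minus its flanks differed by −0.0718 (limma adjusted p = 0.00334). Among 9 genes of GABA synthesis, transport and breakdown, 7 were higher in cerebellum than in cortex, where 55.1% of all genes were, and 7 than in olfactory bulb, where 18% were, with 0 lower in either case (also 0 at an unadjusted p under 0.05 by limma). Slc32a1, the vesicular GABA transporter, had 0.380 ± 0.0069 in olfactory bulb and 0.520 ± 0.0049 in cerebellum, a rise of 0.82 (adjusted p = 2.90e-07). In olfactory bulb against cortex, 1 of the 9 was lower, Gad2, a GABA-synthesizing enzyme (−0.32, adjusted p = 0.0377), and 0 were higher, also at an unadjusted p under 0.05.

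Of 14 anchoring and trafficking genes, 6 were higher in cerebellum than in cortex (55.1% of all genes), 3 than in olfactory bulb (18%), and 5 in olfactory bulb than in cortex (26.4%), shares near those of all genes, with 0 lower in each, though 1 was lower at an unadjusted p under 0.05 by limma in cerebellum against olfactory bulb. Plcl1, a protein that binds GABA-A receptors and their phosphatases, showed the largest rise between cerebellum and cortex in these lists, at 0.77 (adjusted p = 1.16e-07). Of the GABA-B receptor genes, Gabbr2 had 0.536 ± 0.0033 in cortex and 0.666 ± 0.0068 in olfactory bulb, against 0.556 ± 0.0212 in cerebellum. It rose by 0.79 in olfactory bulb against cortex (adjusted p = 6.09e-07) and was lower in cerebellum than in olfactory bulb by a difference of −0.68 (adjusted p = 2.09e-05). Of the chloride transporter genes Slc12a2 and Slc12a5, 1 was higher in cerebellum than in cortex.

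The gene whose 5mC levels lay nearest to each member's over the 7 oxBS-seq libraries, by Euclidean distance and at least 1 Mb away, was Erbin for Gabra2 (distance 0.0217), Clstn2 for Gabra4 (0.0272), Il17b for Gabra5 (0.0186), Loxl2 for Gabra6 (0.0454), Lrrc8c for Gabrb1 (0.0184), Bend6 for Gabrb2 (0.0323) and Cdadc1 for Gabrg3 (0.0111). Gabra6 and Gabrb2 had the most distant nearest genes. For Gabra6 the next gene was at the same distance to 3 digits. Bend6 had means of 0.607, 0.702 and 0.603 in cortex, olfactory bulb and cerebellum, and Erbin, nearest to Gabra2, had 0.649, 0.665 and 0.803.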

How the data were processed

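Levels came from 16 libraries, 9 of TAB-seq and 7 of oxBS-seq; the RNA-seq samples were not analysed here. The authors mapped reads uniquely to mm10 with Bismark (version not given in the sources used here), called sites by a binomial test, and deposited one table a library, with the fraction of 5hmC in 1 Mb bins or of 5mC in 100 kb bins. How sites were combined in a bin is not stated, and the files hold no coverage per bin. The study states a mean sequencing depth per tissue and a minimum coverage per site, from which the depth of a bin or a library cannot be derived, so the error given is the SD between libraries. Bins at 0 or 1 in any library were left out. Spans were GENCODE M 21 on GRCm 38. Bins overlapping a protein-coding gene were averaged as fractions without weights, and the mean was put on the log2 ratio scale for tests. Limma 3.58.1 in R 4.3.3 was fitted per assay over the 3 tissues without a block, with Benjamini-Hochberg adjustment over all features and an adjusted p under 0.05 as the call. For 5hmC limma gave every feature the same variance, so the size of those p-values rests on that assumption. For 5mC levels it drew the variances nearly together, with SEs against cortex from 0.112 to 0.117 among the members. Those p-values therefore also rest largely on a shared variance, and less on the spread of each gene's own libraries. Gene minus flanks used fractions. Exact permutation tests used scipy 1.17.1. The limma fits were tested on simulated data in which few features changed, unlike in these data. For 5mC per gene, 96.5% of changes of 1 were recovered and 0% of those of 0.5. For gene minus flanks, 78.5% of changes of 0.1 were recovered and 0% of those of 0.05. For 5hmC per gene, 99% of changes of 0.5 were recovered. A 5mC difference that did not pass is therefore not shown to be absent. Named genes were all members, neighbouring subunit genes, of which some are not reported here, the lowest 100 kb bin of each member, the gene nearest to each member in 5mC, and the largest rise and fall among the pathway lists per pair of tissues. Members, lists and tests were chosen with earlier results of these data known. Other 100 kb bins given by position were chosen after their values were seen, and the comparison between clusters was added after the data were seen. The study also calls its replicates technical, in which case p-values measure only the spread between these libraries. Alternatives were other scales, centring, the variance model, bin size, chromosomes, filters, weights, the genes tested, flanks, a replicate block and leaving out each library.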

Additional observations from a re-analysis of the deposited data

Results flagged for a closer look

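In the test of 5mC of a gene minus its flanks, 9 differences between tissues passed the threshold among the members. Over all genes, 11.7% were higher and 11.2% lower in cerebellum against cortex. The shares were 9.95% and 10.9% in cerebellum against olfactory bulb, and 3.27% and 2.57% in olfactory bulb against cortex. A call here concerns the contrast of a gene with its surroundings. Differences are on the scale of fractions, by limma with adjustment over all genes. Gabra2 differed by 0.0598 between cerebellum and cortex and by 0.0786 between cerebellum and olfactory bulb. Gabra4 differed by 0.0376 between cerebellum and olfactory bulb. Gabrb1 differed by 0.0557 between olfactory bulb and cortex and by 0.0856 between cerebellum and cortex. Gabra6 differed by −0.0601 between cerebellum and cortex and by −0.0557 between cerebellum and olfactory bulb. Gabrb2 differed by −0.0973 and −0.134 in the same comparisons. The calls of Gabra2 against cortex, of Gabra4, of Gabrb1 in olfactory bulb and of Gabra6 depended on single libraries, as described above. The flanks of the members on a chromosome overlap and hold other subunit genes, so these values are not independent of each other. Groups of 2 or 3 libraries are too small for the test of a single library that stands apart.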

How the results depend on the processing

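Of the results for single members and bins, 699 alternatives kept direction and side of the threshold, 24 lost the call, 17 gained it and 22 changed sign. Of the counts, 390 stayed within 1.5 times and 36 did not. Coverage per bin is not in the files, so what depth limits in a bin was not computed. For 5hmC in cerebellum against cortex, centring on library medians gave 2 members and 1 bin higher, beside 68.9% of genes and 50.3% of bins. In olfactory bulb against cortex it gave 2 members higher and 2 lower, beside 29.5% and 38.5% of genes. It also gave 2 bins higher and 2 lower there, beside 36.2% and 33% of bins. For 5mC in cerebellum against cortex it gave 2 members and 3 bins lower, beside 35.2% of genes and 24.3% of bins. For 5mC in olfactory bulb against cortex, 2 members were higher, beside 3.05% of genes. There 8 bins were higher and 1 lower, beside 8.81% and 9.9% of bins. For gene minus flanks in olfactory bulb against cortex, flanks of 1 Mb gave 2 members higher, as did a trended and robust limma fit.

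Same-numbered libraries did not deviate together throughout (r from −0.191 to 0.429 over 9 pairs in 5hmC, with 3 over 0.1, and from −0.0932 to 0.0290 over 6 pairs in 5mC, with 0 over 0.1), so the numbers were not taken as pairs. With the replicate block, gene minus flanks had 1 member higher in cerebellum against olfactory bulb and 0 in olfactory bulb against cortex, and Gabra5 5mC turned to −0.0194 in olfactory bulb against cortex.

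Leaving out each library in turn gave, for 5mC per gene, 3 to 5 members higher and 1 to 2 lower in cerebellum against olfactory bulb. For gene minus flanks it gave 1 to 2 higher and 1 to 2 lower in both comparisons of cerebellum, and 0 to 1 higher in olfactory bulb against cortex. For 5mC bins it gave 0 to 1 lower in cerebellum against cortex and 8 to 13 higher in olfactory bulb against cortex. For 5hmC in cerebellum against cortex it gave 0 to 2 members and 0 to 1 bins higher, and in olfactory bulb against cortex 3 to 5 bins lower.

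The sign changed for 5mC in olfactory bulb against cortex of Gabra2 (−0.15 centred, −0.0011 to 0.14 with a library left out) and Gabra5 (−0.16 centred, −0.0194 to 0.11 with a library left out), and in cerebellum against cortex of Gabra6 (−0.35 centred, −0.0384 to 0.16 with a library left out) and Gabrb2 (0.36 as means of 1 Mb). For 5hmC it changed in cerebellum against cortex for Gabra6, Gabrb2 and their bin (−0.0094 without cortex replicate 3 to 0.14 without cortex replicate 2), and, centred, in olfactory bulb against cortex for Gabra4 and the chromosome 5 bin from 71000001 (0.0446), for Gabrb1 (0.0026) and for the chromosome 7 bin from 56000001 (0.0832). For gene minus flanks it changed for Gabra6 in olfactory bulb against cortex (0.0037 without flanking subunit genes, 0.0133 with flanks of 1 Mb, 0.0104 on the log2 ratio scale, −0.0095 to 0.00061 with a library left out), Gabra4 in the same comparison (0.0182) and Gabrg3 in cerebellum against olfactory bulb (0.00030), both without flanking subunit genes, and Gabra5 in cerebellum against cortex (−0.0060 to 0.0272 with a library left out). As means of 1 Mb, 5mC in cerebellum against cortex was 0.36 for Gabra6 and Gabrb2 alike, a call of higher (limma adjusted p = 3.29e-05), and in olfactory bulb against cortex Gabra2 (0.30) and Gabra4 (0.32) gained a call and Gabrg3 (0.16) lost it. The cause of these changes was not tested.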
